A study of Mus musculus with 768 samples.

Results

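Ezrin (Ezr), its relatives moesin (Msn), radixin (Rdx) and merlin (Nf2), the scaffold Slc9a3r1, the small GTPases Rac1, Cdc42 and Rhoa, and the adhesion proteins Ptk2 and Ilk were read in single Schwann cells (SCs) of the mouse sciatic nerve at postnatal day 5 (P5). These 10 genes of 25700 in the count table were found by their Ensembl identifiers in GENCODE vM21. Ezr was chosen by its CPM in an earlier analysis of these data, which had shown it highest in cells between the immature and the myelinating state. The other 9 genes were taken as its family and as genes of radial sorting.

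The SCs came from C57bl/6J pups that carry beta-actin dsRed in all cells and express eYFP after P0cre recombination, and the eYFP-positive cells were sorted 1 per well. Every cell of every state shared these alleles, and no untreated or mutant group was compared. Libraries were made with Smart-Seq2, which reads whole transcripts without molecular identifiers. Cells were held in 2 plates of 384 wells, each filled from a suspension that pooled 1 male and 1 female mouse, so n = 2 plates in every comparison. Animals cannot be told apart within a plate. The P0cre driver is active in the SC lineage at all its stages, so the sort did not separate the states.

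Of 768 wells, 655 were retained, with at least 1500 detected genes and outside the plate corners. States were set by 12 genes that are not among the 10. A cell was cycling when it had at least 5 reads in each of at least 3 of 10 cell cycle genes. The others were immature below 10 CPM of Ncmap, where CPM is the number of reads of a gene scaled to a common total of reads, intermediate at 10 CPM or more of Ncmap with less than 30000 CPM of Pmp22, and myelinating above both limits. Plates 1 and 2 gave 106 and 122 immature, 79 and 70 intermediate, 108 and 113 myelinating, and 32 and 25 cycling wells. Reads were summed per plate and state, which gave 8 sums of 13925435 to 98479212 reads. The names of the states were checked on other markers. Ncam1, an immature SC marker, was at 516 and 473 CPM in immature sums and at 2.98 and 3.89 CPM in myelinating sums, and Mbp, a myelin protein gene, was at 4705 and 4724 CPM and at 56101 and 54764 CPM. Ncam1 was also at 444 and 586 CPM in cycling sums. Within wells the lists separated the states less sharply, since all 3 immature markers were read in 28 of 228 immature and 0 of 221 myelinating wells, and at least 3 of 5 myelinating markers in 86 of 228 immature, 137 of 149 intermediate and 221 of 221 myelinating wells. Both pro-myelinating markers, Pou3f1 and Cdkn1c, had at least 5 reads in 100 of 149 intermediate, 93 of 228 immature, 70 of 221 myelinating and 23 of 57 cycling wells. Pou3f1 overlapped between immature (112 and 156 CPM) and intermediate sums (158 and 150 CPM). Cdkn1c was at 1908 and 861 CPM in immature and 3078 and 2005 CPM in intermediate sums. At least 3 of 5 SC markers were read in 640 of 655 wells. Endothelial, immune and pericyte lists were met in 0 of 655 wells, which puts the upper limit of that share at 0.458%. The perineurial list was met in 4 wells, all intermediate.

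Ezrin, radixin and moesin (the ERM proteins) tie the plasma membrane to the actin cortex once they are opened by lipid binding and phosphorylation, and they line SC microvilli that face the node of Ranvier. Merlin is the related product of Nf2, a tumor suppressor whose loss causes schwannomas. During radial sorting, SCs extend processes into axon bundles and take out single large axons, a step that needs laminin receptors, their kinases and adaptors, and the GTPases Rac1 and Cdc42, and sorted cells then go on to myelinate.

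Because family members resemble each other, a stretch of their coding sequence was compared first. Below are coding bases 901 to 960 of Ezr, Msn and Rdx, read from GENCODE vM21 transcripts. The stretch is shown because it holds the longest run of bases shared by Ezr and Msn, and capitals mark the bases that are the same in all 3 genes.
Ezr: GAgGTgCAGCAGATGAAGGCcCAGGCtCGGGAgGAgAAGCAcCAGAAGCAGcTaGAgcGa
Msn: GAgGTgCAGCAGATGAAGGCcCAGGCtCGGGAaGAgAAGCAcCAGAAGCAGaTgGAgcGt
Rdx: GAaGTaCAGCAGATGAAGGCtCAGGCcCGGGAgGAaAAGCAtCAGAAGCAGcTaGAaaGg
Of the 60 bases, 48 were the same in all 3 genes. Over the whole coding sequence Ezr shared 73.1% of aligned bases with Msn, 69.9% with Rdx and 62.0% with Nf2. The longest identical run was 32 bases between Ezr and Msn, 18 between Msn and Rdx, and 15 between Ezr and Rdx. A coding read longer than 32 bases therefore differs between Ezr and Msn in at least 1 base. Among the GTPases the longest identical run was 19 bases, between Rac1 and Rhoa.

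Ezr (chromosome 17, 6738041 to 6782784, minus strand, GRCm38) is protein-coding, as are the other 9 genes. Msn lies on chromosome X at 96096042 to 96168552, Rdx on chromosome 9 at 52047173 to 52088735, and Nf2 on chromosome 11 at 4765845 to 4849536. Slc9a3r1 lies on chromosome 11 at 115163341 to 115181181, Rac1 on chromosome 5 at 143503634 to 143528036, Cdc42 on chromosome 4 at 137319696 to 137357720, and Rhoa on chromosome 9 at 108306129 to 108337934. Ptk2 lies on chromosome 15 at 73205102 to 73423280 and Ilk on chromosome 7 at 105736592 to 105742925. Counts here are of whole genes, over all annotated exons. Ilk shares 2106 of its 2744 exon bases with Taf10 on the opposite strand, and Rac1 shares 2309 of its 4496 with Daglb. Rhoa shares 32 with Tcta, whereas Ezr shares 4 with Sytl3. The strand setting of the counting is not given in the sources used here. In the retained wells Ilk held 129885 reads and Taf10 129763, so the values of Ilk may rest largely on the same reads as those of Taf10. Rac1 held 175997 reads and Daglb 29786, so less of Rac1 can be shared. How many reads were counted for both genes was not tested. Processed pseudogenes resembling Cdc42, Rhoa, Rac1, Ilk and Slc9a3r1 are annotated elsewhere in the genome, and how reads matching both were counted is likewise not given.

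Per length, the 10 genes spanned a wide range. Cdc42 had the highest level, with a mean over the 8 sums of 396 CPM per kilobase of its principal transcript (range 297 to 496). Rhoa followed at 241 (195 to 304), Ilk at 188 (120 to 251), Rac1 at 103 (89.1 to 125) and Ezr at 73.8 (27.3 to 145). Slc9a3r1 was at 44.7 (21.5 to 62.7), Rdx at 32.9 (17.2 to 47.3), Msn at 12.04 (5.35 to 19.8), Ptk2 at 7.74 (3.69 to 14.9) and Nf2 at 4.92 (2.06 to 6.85). The range of each gene overlapped with those of its neighbours in this order. Set per base of all annotated exons instead, Rhoa dropped to 70.7 CPM per kilobase, beside Ezr at 71.0.

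Ezr set the intermediate cells apart. Its level in CPM was 236 and 210 in the immature sums of plates 1 and 2, 459 and 384 in the intermediate sums, 100 and 86.4 in the myelinating sums, and 164 and 230 in the cycling sums. The intermediate sums were the highest of the 8 on both plates, the myelinating sums were the lowest, and neither overlapped with any other state. Cycling and immature sums overlapped.

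**Figure D1:**
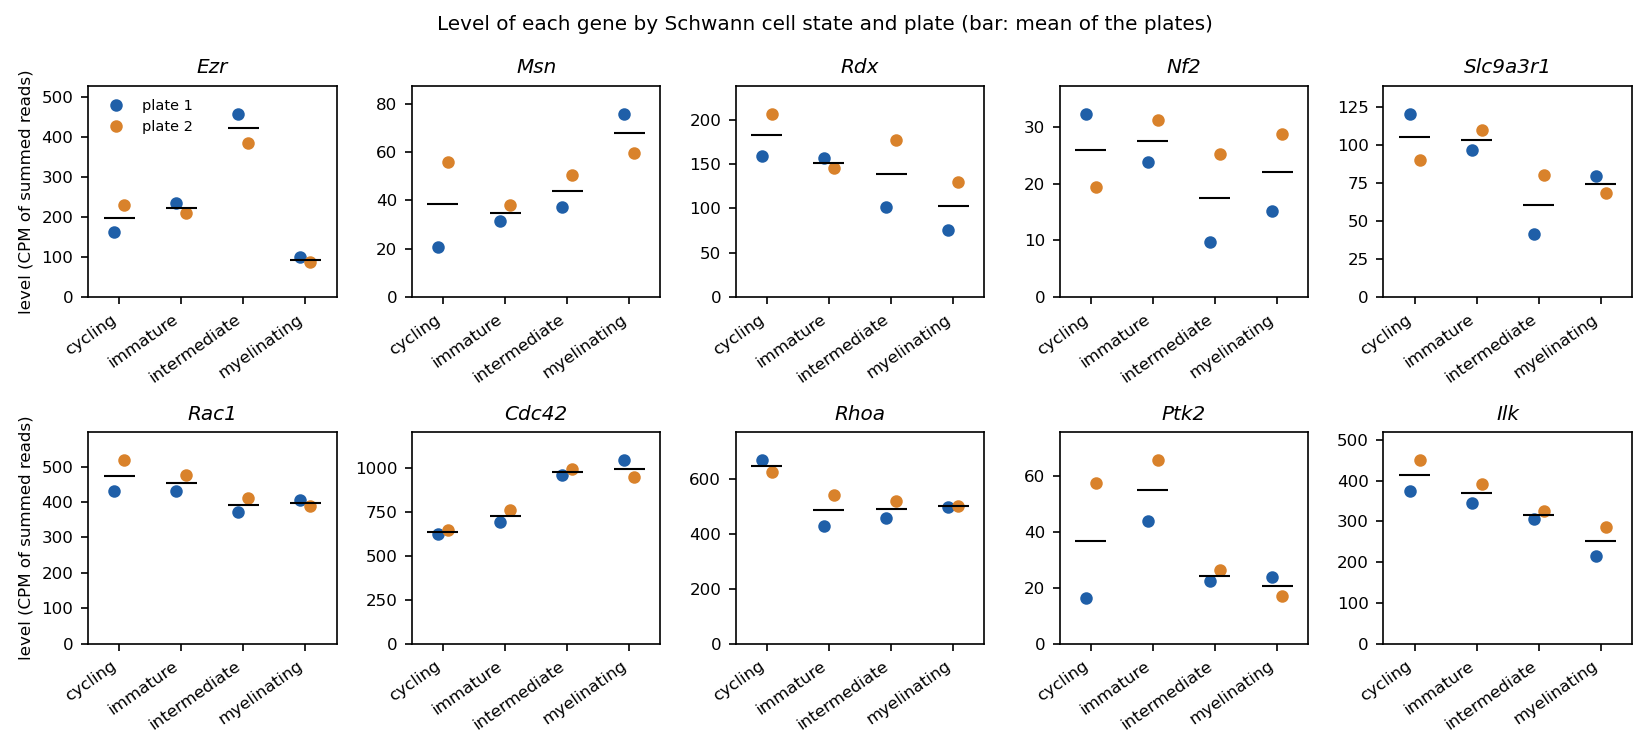
Level of each of the 10 genes in CPM of summed reads (y axis, from 0, scaled per gene) by state (x axis), with 1 point per plate and a bar at the mean of both plates. Ezr peaks in intermediate cells at 459 and 384 CPM, and Cdc42 is at 947 CPM or more in intermediate and myelinating sums. The plates of Rdx and Nf2 lie far apart in the intermediate and myelinating states.

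As means over plates, Ezr was at 223 ± 18.6 CPM (SD, n = 2) in immature, 422 ± 52.9 in intermediate and 93.3 ± 9.72 in myelinating cells. After TMM scaling, which adjusts for a few abundant genes taking a larger share of the reads in some sums, its log2 change was 1.06 from immature to intermediate cells, with 1.12 on plate 1 and 0.99 on plate 2. From intermediate to myelinating cells it was -1.93, with -1.96 and -1.88 on the plates, and from immature to myelinating cells -0.87. These changes are given without a test because Ezr was chosen for this pattern. Each kept its sign in all 19 alternative settings, which re-used wells of the same plates and so do not test the pattern. Their size varied with the setting. It ran from 0.75 to 1.12 from immature to intermediate cells and from -2.18 to -1.52 from intermediate to myelinating cells. From immature to myelinating cells it ran from -1.31 to -0.43, with -0.43 at a Pmp22 limit of 20000 CPM. Ezr was not called between cycling and immature cells (log2 change -0.07 ± 0.23, SE, adjusted p = 0.932, edgeR), and the plates went apart, at -0.44 and 0.24.

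In single wells, Ezr was both read in the largest share of wells and highest at the median in the intermediate state. Ezr reads were found in 84.8% and 91.4% of intermediate wells on the plates, in 78.1% and 84.0% of cycling wells, in 68.9% and 73.8% of immature wells and in 64.8% and 77.0% of myelinating wells. The 633 wells with at least 100000 reads were also thinned to 100000 reads and their states set again, which left out 22 retained wells. The shares became 87.3% and 90.7% of intermediate, 76.7% and 83.3% of cycling, 63.2% and 71.8% of immature and 58.5% and 64.9% of myelinating wells. The share was highest in intermediate cells, and it overlapped between the immature and myelinating states with and without thinning. Wells at 500 CPM or more made up 26.6% and 28.6% of intermediate, 15.1% and 10.7% of immature and 4.63% and 0% of myelinating wells. The single highest Ezr level, 2304 CPM, was in an immature well. Median levels of intermediate wells were 303 and 322 CPM, against 78.2 and 157 CPM in immature and 36.6 and 36.0 CPM in myelinating wells. No single well held more than 23.5% of the Ezr reads of a sum.

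**Figure D2:**
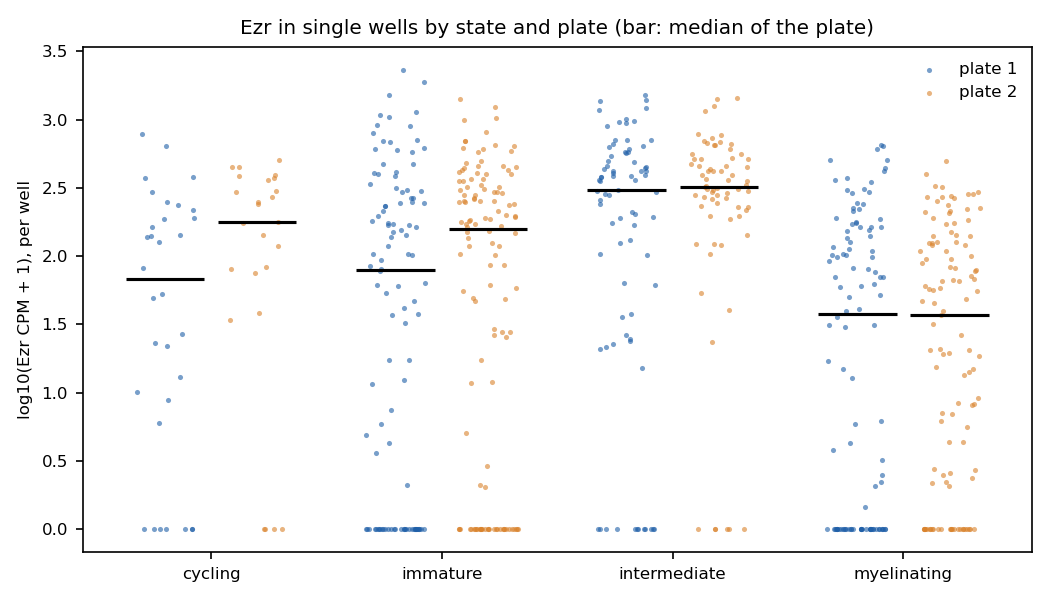
Ezr in each of the 655 wells as log10(CPM + 1) (y axis), by state (x axis) and plate (color), with a bar at the median of each plate. Intermediate wells sit highest on both plates, with medians of 303 and 322 CPM, while wells without an Ezr read (at 0) and wells above 500 CPM occur among immature cells.

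Along the Pmp22 scale, Pmp22 being a compact myelin protein gene that the states were cut on, the Ncmap-positive cells were split into 7 bins. Below 5000 CPM of Pmp22, Ezr was at 673 and 346 CPM on the plates, and at 20000 to 30000 CPM it was at 425 and 355 CPM. It was at 124 and 138 CPM at 30000 to 50000 CPM of Pmp22 and at 101 and 54.6 CPM at 70000 CPM or more. All intermediate bins were above all myelinating bins on both plates, with 335 CPM the lowest intermediate and 138 CPM the highest myelinating value. The bins split the same wells in which Ezr was chosen, so they describe its pattern and do not test it. The bins held 15 to 47 wells each.

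For wells near the limits of the states, both plates were pooled, so these levels have no replicate. The 20 wells just below 30000 CPM of Pmp22 had 422 CPM of Ezr, against 156 CPM in the 20 wells just above it. The 20 wells with Ncmap reads just below 10 CPM had 171 CPM of Ezr, against 614 CPM in the 20 wells next above it, which spanned 11.4 to 387 CPM of Ncmap. No Ncmap read was found in 174 of the 228 immature wells. Few wells thus lay close to the Ncmap limit. Cells with 3 and with 2 cycling genes lay beside the limit of the cycling state, and the 4 with 3 genes had 15.99 CPM of Ezr against 231 CPM in the 21 with 2. Within the intermediate state, Ezr was at 458 and 381 CPM in wells with a read of Pou3f1, a transcription factor of the pro-myelinating stage, and at 467 and 450 CPM in the 9 and 3 wells without one.

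**Figure D3:**
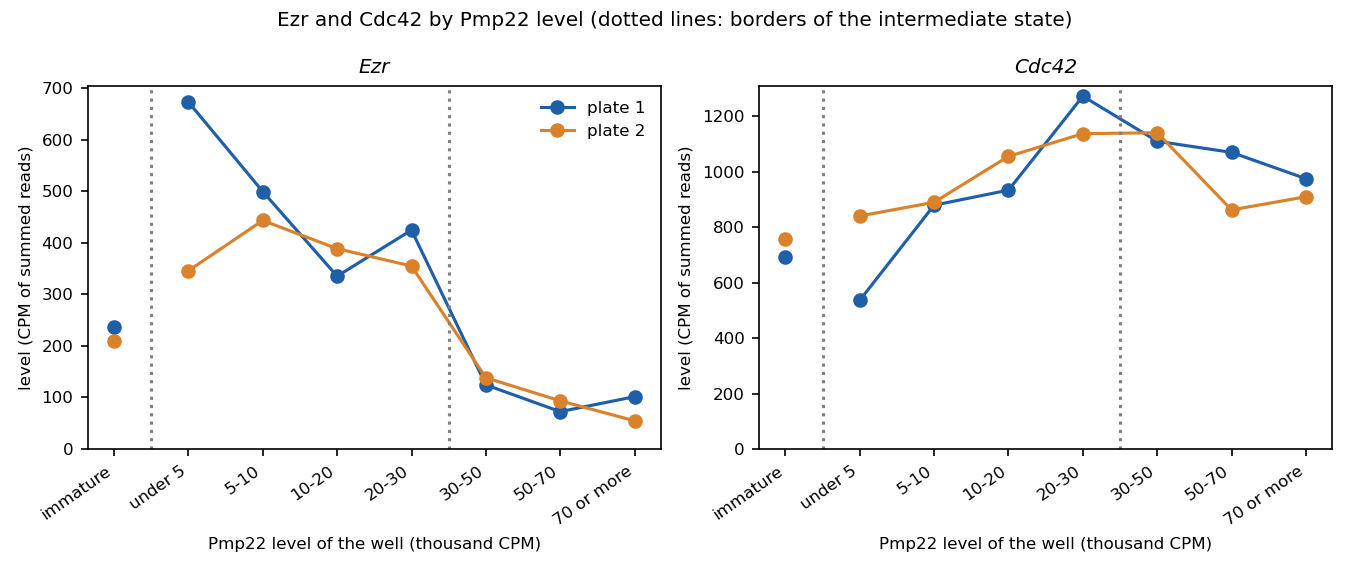
Ezr (left) and Cdc42 (right) in CPM of summed reads (y axes, from 0) over bins of the Pmp22 level of the well in kCPM (x axis), with immature cells at the far left, 1 line per plate and dotted lines at the borders of the intermediate state. Ezr is at 335 CPM or more in every intermediate bin and at 138 CPM or less in every myelinating bin, and Cdc42 is highest near the upper border.

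Moesin had its highest levels in myelinating cells, where ezrin had its lowest, but did not pass the test. Msn was at 31.6 and 38.3 CPM in immature, 37.1 and 50.6 in intermediate, 75.9 and 59.8 in myelinating and 20.6 and 56.1 in cycling sums. The myelinating sums lay above both immature and both intermediate sums. Msn reads were found in 61.1% and 65.5% of myelinating wells, against 24.5% and 31.1% of immature wells. In the thinned wells, with the states set again, the shares were 53.8% and 52.6% against 18.9% and 23.6%. The log2 change from immature to myelinating cells was 1.34 ± 0.50 (SE), which did not pass the test over all genes (edgeR, adjusted p = 0.216), and it was 1.64 and 1.01 on the plates. The 95% interval ran from 0.21 to 2.47.

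Radixin stayed without a call in every comparison. Rdx was at 157 and 146 CPM in immature, 102 and 177 in intermediate, 75.2 and 130 in myelinating and 159 and 207 in cycling sums. Plate 1 was lower than plate 2 in the intermediate and myelinating states, and the difference between plates there was larger than that between the state means. From immature to myelinating cells the log2 change was -0.18 (95% interval -0.95 to 0.59), with -0.66 on plate 1 and 0.22 on plate 2. Rdx reads were found in 82.4% and 81.4% of myelinating wells and in 57.5% and 66.4% of immature wells, and after thinning in 63.2% and 73.7% against 45.3% and 60.0%.

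Merlin was the scarcest of the family. Nf2 was at 23.7 and 31.3 CPM in immature, 9.73 and 25.1 in intermediate, 15.2 and 28.8 in myelinating and 32.3 and 19.5 in cycling sums. The states overlapped with one another in every comparison, and the plates differed within each state. Reads were found in 8.86% to 34.5% of wells, and 1 well gave 50.2% of the Nf2 reads of the intermediate sum on plate 1. Its log2 change from immature to intermediate cells was -0.53 with a 95% interval from -2.00 to 0.94, so its direction was not resolved with 2 plates.

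Slc9a3r1, the scaffold EBP50 that links opened ERM proteins to membrane proteins, was lowest in the intermediate sum of plate 1. It was at 96.7 and 110 CPM in immature, 41.4 and 80.1 in intermediate, 79.9 and 68.7 in myelinating and 121 and 90.3 in cycling sums. Both intermediate sums were below both immature sums. The log2 change was -0.63 ± 0.34 (SE, edgeR, adjusted p = 0.571), with -1.05 and -0.34 on the plates, so the state with the most Ezr had no more Slc9a3r1 than immature cells on either plate.

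Cdc42, a GTPase of filopodia and cell polarity that is needed in SCs for radial sorting, was the only one of the tested genes to pass the test, and it rose towards myelination. Its level was 693 and 759 CPM in immature, 958 and 996 in intermediate, 1046 and 947 in myelinating and 626 and 648 in cycling sums. Every intermediate and myelinating sum was above every immature and cycling sum, and the intermediate and myelinating sums overlapped. From immature to myelinating cells it was higher by 0.84 ± 0.13 on the log2 scale (SE, n = 2 plates, edgeR, adjusted p = 0.00703), with 0.99 on plate 1 and 0.70 on plate 2. Over all genes tested, 5.14% were called in this comparison, and 1 of the 9 tested members was. The log2 change was 0.46 with scaling to library size alone (adjusted p = 0.0777) and 0.43 on mean per-cell CPM with limma (adjusted p = 0.0589), where the call was lost.

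From immature to intermediate cells the log2 change of Cdc42 was 0.57 ± 0.13 (adjusted p = 0.0789, edgeR), which did not pass, and 0.63 and 0.51 on the plates. The 95% interval was 0.27 to 0.87. Across the Pmp22 bins, Cdc42 was at 536 and 840 CPM below 5000 CPM of Pmp22, was at 1272 and 1137 CPM at 20000 to 30000 CPM and at 1110 and 1141 CPM at 30000 to 50000 CPM, and was at 975 and 910 CPM at 70000 CPM or more. It thus stayed high past the limit at which Ezr dropped. Reads of Cdc42 were found in 93.4% to 100% of wells of each state.

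Rac1, the GTPase of lamellipodia that SCs need to extend processes between axons, was nearly level. It was at 430 and 476 CPM in immature, 371 and 413 in intermediate, 406 and 389 in myelinating and 431 and 519 in cycling sums. Intermediate and myelinating sums were below the immature ones in CPM, but the TMM-scaled log2 changes were small, at -0.07 (95% interval -0.45 to 0.30) to intermediate and 0.19 (-0.18 to 0.57) to myelinating cells. With library size alone the second turned to -0.19.

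Rhoa, the GTPase that drives actomyosin contraction, was highest in cycling cells. It was at 430 and 541 CPM in immature, 459 and 520 in intermediate, 496 and 503 in myelinating and 668 and 624 in cycling sums. The cycling sums were above all 6 others, which overlapped among themselves. The log2 change from immature to cycling cells was 0.52 ± 0.16 (SE, edgeR, adjusted p = 0.156), with 0.72 and 0.32 on the plates. It passed under DESeq2 (adjusted p = 0.00905) and in none of the other 16 settings that gave a p.

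Ptk2, which encodes focal adhesion kinase, and Ilk, the integrin-linked adaptor that joins integrins to actin, both act below laminin receptors in radial sorting. Ptk2 was at 44.1 and 65.9 CPM in immature, 22.4 and 26.4 in intermediate, 24.04 and 17.1 in myelinating and 16.3 and 57.4 in cycling sums. Both later states were below both immature sums. The log2 change was -1.04 ± 0.62 to intermediate (edgeR, adjusted p = 0.615) and -1.03 ± 0.62 to myelinating cells (adjusted p = 0.489), and neither passed. Ptk2 reads were found in 22.1% to 36.0% of wells, and 1 well held 76.5% of them in the cycling sum of plate 1.

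Ilk was at 346 and 392 CPM in immature, 306 and 325 in intermediate, 215 and 287 in myelinating and 375 and 451 in cycling sums. In CPM the states stepped down without overlap from immature to intermediate to myelinating cells. After TMM scaling the log2 change from immature to myelinating cells was -0.17 (95% interval -0.62 to 0.27, edgeR, adjusted p = 0.805), with library size alone -0.56, and -0.60 on mean per-cell CPM with limma. The size of the step thus depended on the scaling, and the reads behind it may be shared with Taf10.

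CPM and TMM-scaled values differed most for myelinating cells, in which the 20 most abundant genes took 25.04% and 25.03% of the reads of the sums, against 10.6% and 10.7% in immature sums. Against TMM, library size alone moved the median change of all genes by -0.38 from immature to myelinating cells, by -0.24 from intermediate to myelinating, by -0.14 from immature to intermediate and by -0.10 from immature to cycling cells. Read depth differed as well, with medians of 476354 and 418998 reads per immature well and 819462 and 719230 per myelinating well. Detected genes had medians of 2925 and 3189 per immature well and 3724 and 4056 per myelinating well. Shares of wells with a read are therefore given for Ezr, Msn and Rdx also after thinning. The fibroblast list of 6 genes summed to 4331 and 4405 CPM in immature, 2185 and 1914 in intermediate, 896 and 986 in myelinating and 4340 and 5513 in cycling sums, and it was met in 469 of 655 wells. The list was met in 209 of 228 immature, 111 of 149 intermediate, 93 of 221 myelinating and 56 of 57 cycling wells. Its genes Dcn, Lum and Pdgfra were at 28.7 CPM or less in every sum, and most of its reads lay in Col1a1, Col3a1 and Col1a2. The part of this list in the results was not tested.

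**Figure D4:**
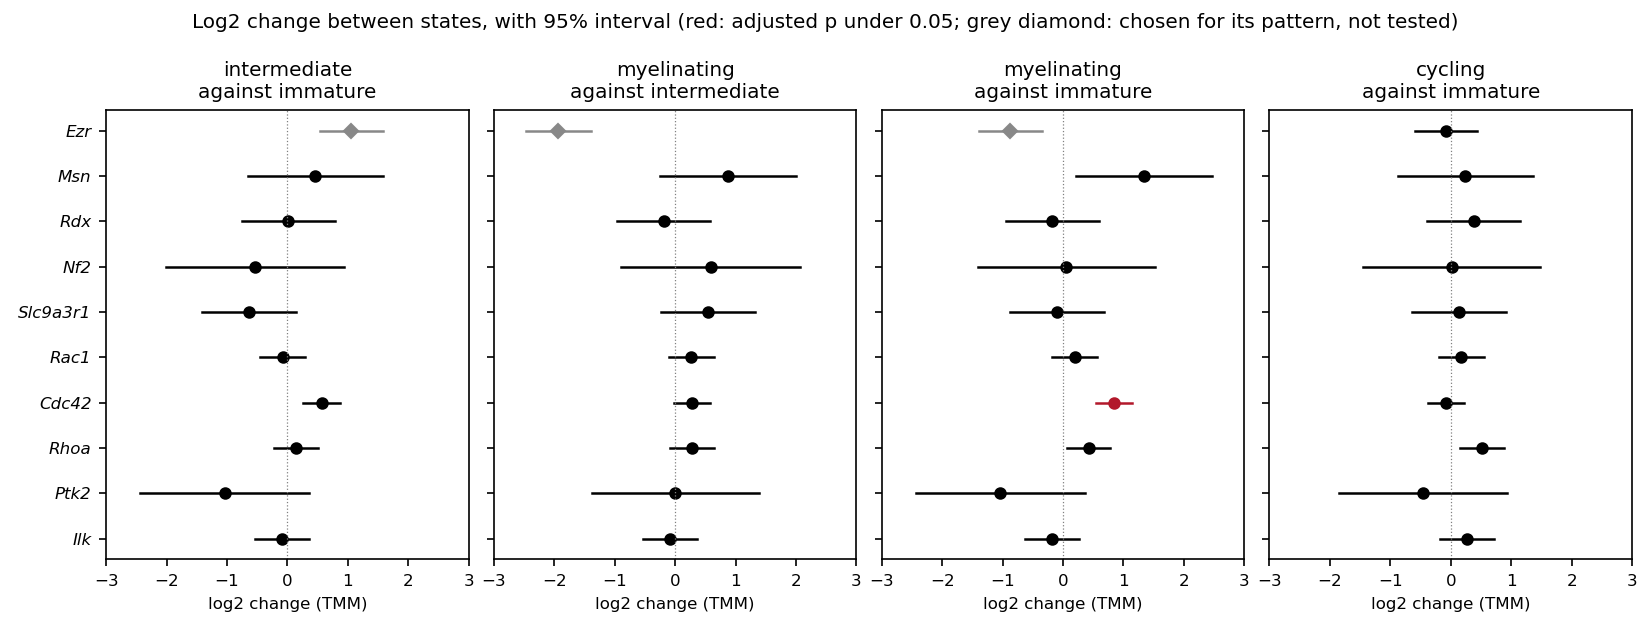
TMM-scaled log2 change of each gene (points) with its 95% interval (lines) in the 4 comparisons (panels), where 0 is no difference, red marks an adjusted p under 0.05 and grey diamonds mark Ezr where it was not tested. Cdc42 from immature to myelinating cells is the only called value, at 0.84, and the intervals of Nf2 and Ptk2 span more than those of the GTPases.

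Across all comparisons, calls among the 10 genes were few. From immature to intermediate cells 2% of all genes were called by edgeR, and 0 of the 9 tested members were, with 1 at an unadjusted p under 0.05 (11% of all genes), 1 by DESeq2 and 0 by limma. From intermediate to myelinating cells 0.784% of all genes and 0 of 9 members were called, with 0 at an unadjusted p under 0.05 (9.36% of all genes), 0 by DESeq2 and 0 by limma. From immature to cycling cells 2.58% of all genes and 0 of 10 members were called, with 1 at an unadjusted p under 0.05 (15.4% of all genes), 1 by DESeq2 and 0 by limma. From immature to myelinating cells 3 of 9 had an unadjusted p under 0.05, against 16.3% of all genes. The states did not overlap in CPM for 6 of the 10 genes from immature to intermediate cells, 3 from intermediate to myelinating, 8 from immature to myelinating and 3 from immature to cycling cells. The same held for 43.9%, 47.4%, 58% and 45.4% of all genes tested, so such separation with 2 plates was common. Ezr, chosen for its pattern, is counted among the separated members in all but the last comparison.

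Partners of the ERM proteins and merlin, with the Hippo kinases, band 4.1 proteins and gliomedin, were read as a list of 23 genes, all tested. Of these 1 rose and 0 fell from immature to intermediate cells, 0 rose and 1 fell from intermediate to myelinating cells, and 2 rose and 2 fell from immature to myelinating cells. Over all genes tested, edgeR called 0.985% higher and 1.01% lower, 0.36% and 0.424%, and 2.6% and 2.54% in these comparisons, and 1.29% and 1.29% from immature to cycling cells. With library size alone in place of TMM, higher genes made up 21.99% in place of 45.9% of the calls from intermediate to myelinating cells and 26.6% in place of 50.6% from immature to myelinating cells. Epb41l2, a band 4.1 protein that links membrane proteins to spectrin and actin, was at 127 and 167 CPM in immature, 251 and 331 in intermediate and 507 and 587 in myelinating sums. It rose by 1.12 on the log2 scale to intermediate (edgeR, adjusted p = 0.0472, and 0.0595 with plate as a block) and by 2.28 to myelinating cells (adjusted p = 7.4e-04). Without the block, Epb41l2 was thus higher than in immature cells both in the state in which Ezr peaked and in the state in which it was lowest.

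Cd44, a hyaluronan receptor that binds ERM proteins and merlin, fell to near absence in myelinating cells. It was at 214 and 59.6 CPM in immature and 41.2 and 77.4 in intermediate sums, and 4 reads remained in each myelinating sum (edgeR, adjusted p = 0.00117 against intermediate and 1.67e-04 against immature cells). Sdc4, a heparan sulfate receptor, fell by 1.39 on the log2 scale from immature to myelinating cells, from 864 and 939 CPM to 314 and 213 CPM (adjusted p = 0.0265). Gldn, gliomedin, which clusters sodium channels at nodes, was at 0.0185 and 3.27 CPM in immature and 164 and 175 CPM in myelinating sums (adjusted p = 0.0425). From immature to cycling cells edgeR called 0 of the 23, DESeq2 3 and limma 0. An unadjusted p under 0.05 was found for 4 of the 23, against 15.4% of all genes. From immature to intermediate cells 6 of the 23 had an unadjusted p under 0.05 (11% of all genes), 5 were called by DESeq2 and 4 by limma. From intermediate to myelinating cells these counts were 4 (9.36% of all genes), 2 and 1. From immature to myelinating cells they were 6 (16.3% of all genes), 5 and 6. The median log2 change of the list was 0.13, 0.18, -0.07 and 0.04 in the 4 comparisons, from immature to intermediate, intermediate to myelinating, immature to myelinating and immature to cycling cells, against -0.03, 0.00, -0.04 and -0.13 over all genes.

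Laminins, their receptors and focal adhesion adaptors gave 22 tested genes of 25. Dag1, dystroglycan, a laminin receptor of the outer SC surface, rose from 162 and 183 CPM in immature to 308 and 430 CPM in intermediate sums (log2 change 1.23, edgeR, adjusted p = 0.0281) and was at 377 and 394 CPM in myelinating sums (1.54 from immature, adjusted p = 0.00438). Lama4, a laminin alpha chain, fell from 258 and 303 CPM to 86.4 and 116 CPM in intermediate (log2 change -1.34, adjusted p = 0.0171) and 115 and 107 CPM in myelinating sums (-0.95, adjusted p = 0.0378). These were the only calls from immature to either later state, with 1 up and 1 down in each. Over all genes tested, edgeR called 2% from immature to intermediate and 5.14% from immature to myelinating cells. From intermediate to myelinating cells edgeR called 0 of the 22, against 0.784% of all genes. Of the 22, 6 had an unadjusted p under 0.05 (9.36% of all genes), 3 were called by DESeq2 and 1 by limma. From immature to cycling cells all these counts were 0, where 2.58% of all genes were called and 15.4% had an unadjusted p under 0.05. Dag1 and Lama4 thus had already moved in the intermediate state. The median log2 change of the list was -0.39, 0.35, -0.15 and 0.21 from immature to intermediate, intermediate to myelinating, immature to myelinating and immature to cycling cells, against -0.03, 0.00, -0.04 and -0.13 over all genes. From immature to intermediate cells 3 of the 22 had a positive change, with a median of -0.03 over all genes, and this lean was not tested.

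The genes whose levels followed Ezr most closely over the 8 sums were Ctsz, a lysosomal cathepsin (Pearson r = 0.949 of log2(CPM + 1)), Slc25a5, a mitochondrial nucleotide carrier (0.938), Gm21981 and Tomm6 (both 0.934) and Capzb, a capping protein of actin filaments (0.933). They were the first 5 of 1980 genes with at least 100 CPM on average, and the 8 sums share plates and reads. Gm21981 and Tomm6 overlap on the same strand, so their values may rest on the same reads. Ctsz was at 530 and 475 CPM in immature, 777 and 564 in intermediate and 361 and 357 in myelinating sums, a narrower span than that of Ezr. Of the other 9 members, the closest to Ezr over the sums was Ilk, at r = 0.405, and the farthest was Nf2, at -0.37.

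Between single wells of 1 state, the 10 genes hardly varied together. Over the 45 pairs, r of log2(CPM + 1) had a median of 0.05 in 228 immature, 0.10 in 149 intermediate, 0.06 in 221 myelinating and 0.03 in 57 cycling wells. The highest single value was 0.54, among cycling wells, and values of sparse reads in shared wells carry depth and dropout as well.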

How the data were processed

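The authors deposited raw read counts per gene and well, 1 table of 768 wells. They aligned Smart-Seq2 reads with STAR (2.6.1c per the submitters' processing notes) and counted them with featureCounts. The notes name a mouse build, GRCm38.p5, whereas the methods name a human one, so coordinates here are those of GENCODE vM21 and not of the counting annotation. Of 25700 gene identifiers 25664 matched vM21, and the other 36 held 0.0821% of the reads.

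Wells under 1500 detected genes (109) and 4 retained corner wells were left out. Reads were summed per plate and state and fitted with edgeR 4.0.16 (R 4.3.3, glmQLFit and glmQLFTest, TMM, filterByExpr, Benjamini-Hochberg over 13904 genes, threshold 0.05, 4 residual degrees of freedom). Alternatives were DESeq2 1.42.0, limma 3.58.1 on log2(value + 1), other scalings, filters, thresholds, wells thinned to 100000 reads, and plate as a block. The plate numbers pair the states, since both states of a comparison come from the same pooled animals. Deviations of same-numbered sums from their state means correlated at -0.01 to 0.12 over 1990 genes in 6 pairs of states. Intervals and limits cover counting or plate error only, since reads without molecular identifiers are not independent molecules. With 2 plates, p-values rest on the spread between these 2 pools. In edgeR that spread was estimated over all 4 states and drawn towards that of other genes. The SE given with edgeR was worked back from the log2 change and its F statistic. The fit was tested on simulated data. No doublet caller was run. Coding identity was computed with Biopython 1.88 and near copies with BLAST 2.17.0.

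The members, gene lists and tests were chosen with earlier results of these data known. The text names the 10 members in every state and comparison, up to 3 called genes per direction of each list with at least 10 CPM on average and the largest changes, and the 5 genes most correlated with Ezr. One of the gene lists read is not reported here. Genes at the borders of the rules, the split of intermediate wells by Pou3f1, the thresholds of 500 CPM and the Pmp22 bins were chosen after values were seen.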

Additional observations from a re-analysis of the deposited data

Results flagged for a closer look

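The 109 wells with fewer than 1500 detected genes entered no comparison and held 8931 reads of the 10 members, 427 of them of Ezr, among 7310447 reads. The 4 corner wells that passed the gene minimum were also left out and held 535 reads of the members, 6 of them of Ezr, among 127106 reads. Both were listed because they hold reads of the members outside the comparisons, and the corner wells have no known content in the labels. Members took 1222 CPM in the first and 4209 CPM in the second, against 2645 CPM in the 655 retained wells.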

How the results depend on the processing

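Counts of called genes were within 1.5 times the main count in 53 of 68 comparisons with the alternatives. From immature to intermediate cells (278 genes) they were 944 with DESeq2, 692 with no filter on low counts and 464 with limma on mean per-cell CPM. From intermediate to myelinating cells (109) they were 655, 435 and 303 under the same settings, and 281 in thinned wells. From immature to myelinating cells (715) they were 1507, 1197 and 1578. From immature to cycling cells (359) they were 1365, 848 and 799, then 566 in thinned wells and 202 with cycling called from 2 genes. The cause was not tested. Under limma the share of higher calls was 36.4%, 27.4%, 29.3% and 45.2% in these comparisons, against 49.3%, 45.9%, 50.6% and 50.1% in the main one, and it was 74.8% with cycling called from 2 genes. With plate as a replicate block, counts were 258, 96, 676 and 277, Epb41l2 lost its call in intermediate cells, and no other named call changed.

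Of 760 member values under 19 alternatives, 710 kept their sign. The other 50 belonged to 11 member comparisons, none of them called. Cdc42 from immature to myelinating cells was called in 15 of 17 settings that gave a p (adjusted p 1.7e-08 to 0.0777) and kept its sign in all 19. Cdc42 from immature to intermediate cells passed with DESeq2 (0.000863) and with a Pmp22 limit of 40000 CPM (0.0387). Without plate 1 or plate 2, no residual degrees of freedom remain, so only values were given. Low reads limit Nf2, Ptk2 and Msn most.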
